A study of Rattus norvegicus with 19 samples.

Results

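The 13 mammary carcinomas of this study were divided by the level of their fibrillar collagen messages. The collagen score of a carcinoma was the mean of Col1a1, Col1a2 and Col3a1, each taken as its difference from the mean of the 13 carcinomas. The 6 carcinomas with the highest scores are called collagen-rich here, the 6 with the lowest collagen-poor, and the carcinoma at the median was left out of the comparison. So 12 of the 13 carcinomas, out of 19 samples in all, were compared. The sides were chosen by measured collagen values, so the levels of these 3 genes are given as a description and were not tested.

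All rats were females of 1 F1 hybrid, between Sprague-Dawley and Copenhagen rats. The carcinomas are titled as mammary carcinomas, and the protocol names whole-body gamma irradiation with 4 Gy at 7 weeks of age. The 6 normal mammary glands serve as a reference, and which of them came from irradiated rats was not given in the sources used here, nor was the age at sampling. The collagen-rich and collagen-poor carcinomas share strain, sex and treatment, so they differ by no labelled condition. Each sample was hybridised to 1 Agilent single-colour array, and the labels do not say whether any 2 carcinomas came from the same rat. The p-values measure the spread between these samples only.

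Type I and type III collagen are secreted mainly by fibroblasts and form the fibres of connective tissue. The chains are assembled and modified in the endoplasmic reticulum, trimmed outside the cell, cross-linked by lysyl oxidases and decorated by small proteoglycans and matricellular proteins. In mammary tumours such fibres accumulate in the stroma around the malignant epithelium. A whole piece of tumour was measured, so more cells of a type and more RNA per cell cannot be told apart.

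The values are log2 intensities relative to the 75th percentile of the same array, so 0 stands for a spot at that percentile and a step of 1 for a doubling. They rank samples for 1 gene and do not compare genes with each other. Col1a1, which codes for the alpha 1 chain of type I collagen, had log2 levels of 5.42 to 6.21 (median 6.09) in the 6 collagen-rich carcinomas and of 0.11 to 4.19 (median 1.76) in the 6 collagen-poor ones. Col1a2, the partner chain of type I collagen, lay at 5.98 to 7.09 (median 6.85) against 1.01 to 4.90 (median 2.71). Col3a1, the chain of type III collagen, lay at 4.38 to 5.36 (median 4.75) against 0.34 to 3.52 (median 1.64). For each of these genes every collagen-rich carcinoma was above every collagen-poor one, as the choice of the sides made likely.

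**Figure D1:**
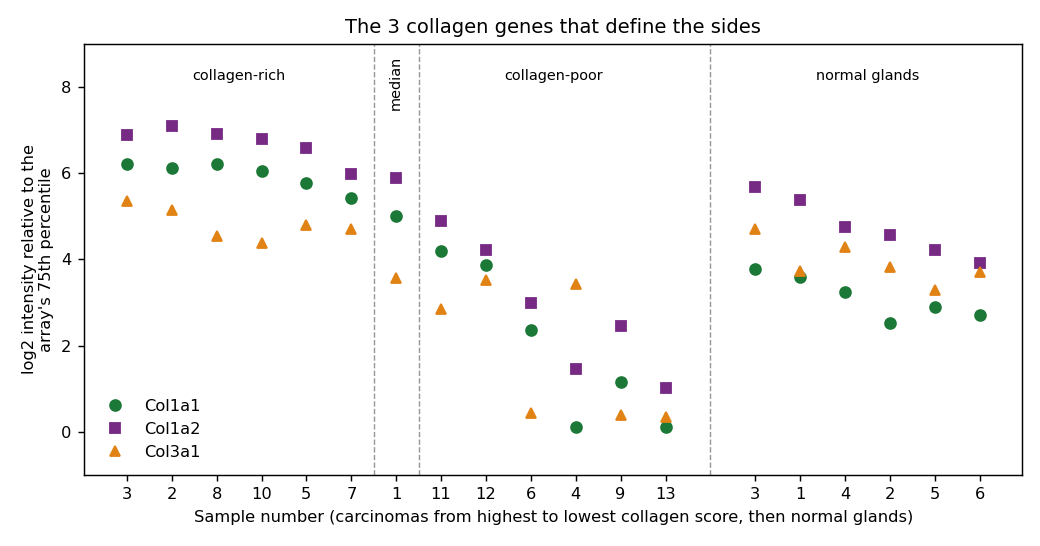
Log2 intensity relative to the array's 75th percentile (vertical axis) of Col1a1, Col1a2 and Col3a1 in each of the 13 carcinomas, from the highest to the lowest collagen score, and in the 6 normal glands. The 6 collagen-rich carcinomas lie close together, the collagen-poor carcinomas 11 and 12 lie between them and the other 4, and carcinoma 4 has a Col3a1 value of 3.44 beside a Col1a1 value of 0.11.

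The score ran from 1.29 to 2.07 on the rich side and from -3.59 to -0.10 on the poor side. Carcinoma 7, with 1.29, was the last on the rich side, the median carcinoma 1 had 0.74, and carcinoma 11, with -0.10, was the first on the poor side. The widest gap between neighbours, 1.94, was not at these borders. It lay inside the poor side, between carcinoma 12 (-0.22) and carcinoma 6 (-2.16). The poor side thus held carcinomas 11 and 12 with intermediate scores and carcinomas 6, 4, 9 and 13 with much lower ones. The 6 normal glands, scored on the carcinoma scale, fell between -0.64 and 0.63, above those 4 and below the rich side.

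Col1a1 and Col1a2 ran in parallel over the 13 carcinomas (Pearson r = 0.99). Col3a1 followed them less closely (r = 0.82 with Col1a1 and 0.83 with Col1a2). All 3 values come from the same 13 arrays, and these r are descriptions. A second probe of Col1a1 ran from 4.12 to 4.86 on the rich side and from -0.82 to 3.12 on the poor side. It measures a score gene on the same arrays, so the choice of the sides made this lack of overlap likely too.

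Promoter sequence was available for 5 of the 9 score and called genes: Col1a2 of the score, and Col5a1, Rarres2, Kptn and Arid3a of the genes described next. The windows of Col1a2 and Col5a1 are shown, as those of the fibrillar collagens among them. Each holds the 250 bases before the annotated start in RefSeq (assembly GRCr8), 5′ to 3′ on the coding strand. Capitals mark matches to the letters of the CCAAT box (CCAAT), the TATA box (TATAAA) and the GC box (GGGCGG). Both strands were searched, so a match on the other strand shows as the reverse complement, and no 2 matches overlap.
Col1a2, chr4:33518307-33518556, plus strand: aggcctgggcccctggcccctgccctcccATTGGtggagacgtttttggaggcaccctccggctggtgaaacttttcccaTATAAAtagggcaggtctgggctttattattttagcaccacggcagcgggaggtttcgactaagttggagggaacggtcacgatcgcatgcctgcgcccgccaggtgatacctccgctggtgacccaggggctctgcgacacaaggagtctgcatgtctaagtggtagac
Col5a1, chr3:31606630-31606879, plus strand: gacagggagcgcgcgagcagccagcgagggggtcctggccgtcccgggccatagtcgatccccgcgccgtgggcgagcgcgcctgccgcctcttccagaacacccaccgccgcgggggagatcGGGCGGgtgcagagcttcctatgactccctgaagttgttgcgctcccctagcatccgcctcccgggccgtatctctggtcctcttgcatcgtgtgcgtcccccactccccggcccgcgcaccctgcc
The Col1a2 window holds 1 match to the CCAAT letters and 1 to the TATA letters, and 58.4% of its bases are G or C. These matches begin at positions -221 and -170, counted from the annotated start. The Col5a1 window holds 1 match to the GC box letters, at -127, neither of the other motifs, and 71.6% G or C. Of 27457 rat promoter windows of the same length, 34.3% hold the CCAAT letters, 13.1% the TATA letters and 32.4% the GC box letters. Among the 10292 windows of genes tested here the shares were 35.3% for CCAAT, 8.92% for TATA and 52.4% for the GC box. The letters are a description of these windows only.

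The comparison of the sides covered 12600 genes other than the 3 of the score. In limma with Benjamini-Hochberg adjustment over these genes, 6 genes were higher in collagen-rich carcinomas (0.0476% of those tested) and none was lower (0%). At an unadjusted p under 0.05, 719 genes were higher and 451 lower. The median log2 change of all genes was 0.03, and 52.6% had a change above 0. In 76 genes (0.603%) every rich carcinoma was above every poor one, and in 29 genes (0.23%) every rich carcinoma was below.

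The 6 genes were Col5a1, Col6a2, Tmem119, Rarres2, Kptn and Arid3a. Col5a1 codes for a chain of type V collagen, which starts the assembly of type I fibrils. Its log2 level was -0.19 to 1.01 (median 0.34) in the rich and -3.66 to -1.50 (median -2.07) in the poor carcinomas. The log2 change was 2.61 ± 0.35 (SE, 6 against 6, limma adjusted p = 0.027). Rich and poor carcinomas did not overlap, the median carcinoma lay between them at -0.89, and the normal glands lay at -2.60 to -0.78.

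Col6a2 codes for a chain of type VI collagen, which builds beaded filaments around cells. Its log2 level was 3.89 to 5.45 (median 4.51) in the rich and 1.05 to 3.03 (median 2.43) in the poor carcinomas, a change of 2.40 ± 0.37 (limma adjusted p = 0.046). The sides did not overlap, and the normal glands, at 3.22 to 4.64, reached into the rich range.

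Tmem119 codes for a membrane protein best known from osteoblasts and from microglia of the brain. Its log2 level was -2.08 to -0.81 (median -1.46) in the rich and -4.23 to -3.02 (median -3.50) in the poor carcinomas. It changed by 2.14 ± 0.28 (limma adjusted p = 0.027). No poor carcinoma reached the lowest rich one, while the normal glands spanned both sides (-3.56 to -1.39).

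Rarres2 codes for chemerin, a secreted attractant of leukocytes that fat tissue releases in quantity. It lay at -1.99 to -0.52 (median -1.30) in the rich and -3.82 to -2.80 (median -3.47) in the poor carcinomas, a log2 change of 2.05 ± 0.28 (limma adjusted p = 0.027). Every normal gland was above every carcinoma of either side, at 0.15 to 2.40. Adipocyte markers, as the mean of their values centred on the carcinoma means, had list scores of -0.29 to 0.54 in the rich and -0.67 to 0.61 in the poor carcinomas, and again every normal gland was above every carcinoma (4.76 to 5.54). Of 16 adipocyte genes tested none passed between the sides. Their part in the Rarres2 change was not tested.

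Kptn codes for kaptin, an actin-binding protein that also belongs to a regulator of the mTORC1 kinase. It lay at -3.45 to -2.62 (median -2.87) against -5.05 to -3.96 (median -4.47), a log2 change of 1.56 ± 0.24 (limma adjusted p = 0.046). Arid3a codes for a DNA-binding transcription factor of the ARID family. It lay at -0.16 to 0.40 (median 0.07) against -1.59 to -0.63 (median -1.23), a change of 1.24 ± 0.19 (limma adjusted p = 0.046). For both genes the sides did not overlap, and the normal glands were more spread than either side (-3.67 to -1.11 for Kptn and -0.48 to 2.61 for Arid3a).

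The count of 6 depended on single carcinomas. It was 0 without any 1 of carcinomas 2, 3, 4, 5, 6, 8, 9 or 10, and 15 without carcinoma 7, whose array was the dimmest of the carcinomas. It was also 0 with slide or with code series as a block. The changes themselves kept their sign for all 6 genes under every one of 34 other settings. Col5a1 ranged from 1.87 to 3.05 over them. The sides of these genes do not overlap, so the sign was fixed wherever carcinomas were left out or a subset was taken. Groups from pairs of the score genes, or from quantile-normalized collagen values, repeated the main fit with the same 6 genes. Slide 2 and scan day 2, each taken alone, hold the same carcinomas and so are 1 setting counted as 2.

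**Figure D2:**
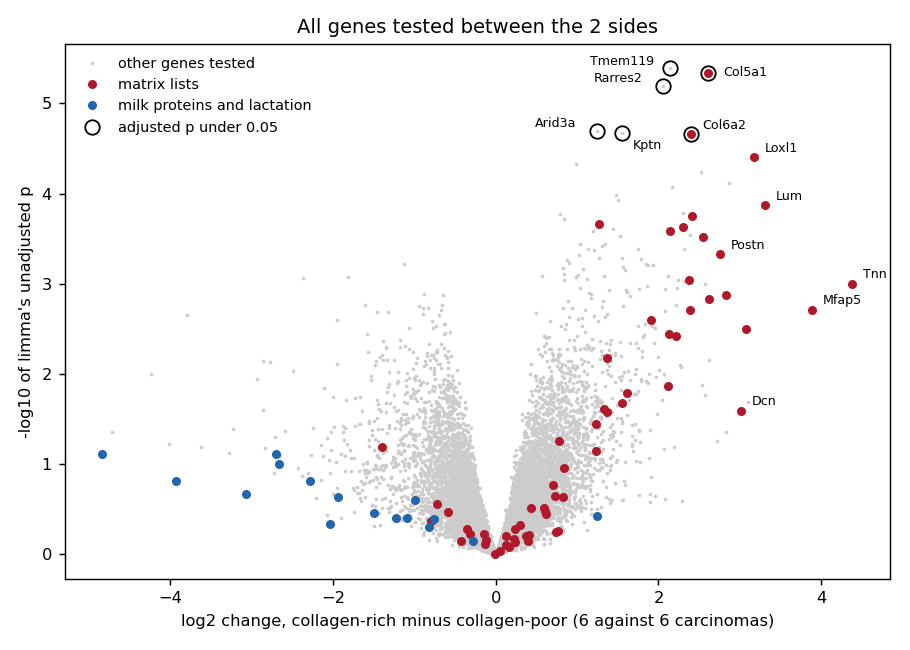
Log2 change (horizontal axis, collagen-rich minus collagen-poor, 6 against 6 carcinomas) and -log10 of limma's unadjusted p (vertical axis) of the 12600 genes tested. Red points are genes of 6 matrix lists, blue points milk protein genes, and rings mark the 6 genes with an adjusted p under 0.05, all of them to the right of 0.

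The array measures of the sides overlapped. The 75th percentile of intensity was 1000 ± 316 (SD, n = 6) on the rich and 1083 ± 239 (SD, n = 6) on the poor side (exact permutation test over 924 splits, two-sided p = 0.64). Spots well above background made up 78.2% against 78.0% (exact permutation p = 0.96). Carcinoma 7 stood apart with a percentile of 485 and 62.3% of spots well above background. Slide 1 held 3 rich and no poor carcinomas, slide 2 held 1 and 3, and slide 3 held 2 and 3. Scan day 1 held 5 rich and 3 poor carcinomas and scan day 2 held 1 and 3. The 3 carcinomas with a letter code (11, 12 and 13) were all on the poor side. They were the only poor carcinomas of scan day 1 and of slide 3, so side and code series cannot be told apart within either. Within slide 2 Col5a1 was higher in the rich carcinoma by 1.87, within slide 3 by 2.98, and among number-coded carcinomas by 2.45. The differences of the other 5 genes in these subsets were 0.93 to 2.44. As the sides of these 6 genes do not overlap over all 12 carcinomas, the sign within a subset was fixed, and only the size is informative.

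The same genes were next set against the score as a continuous measure over all 13 carcinomas, which uses the distances between tumours. In this limma fit 59 genes rose with the score (0.468% of 12600 tested) and none fell (0%). With slide as a block 14 genes rose and 12 of the 59 were still called, so 47 were lost, and slide 1 holds no collagen-poor carcinoma. At an unadjusted p under 0.05, 604 genes had a positive and 424 a negative slope. The 6 genes above were among the 59, but both fits share 12 carcinomas. A slope is the log2 change of a gene per unit of score. This fit is given at length because it called more genes. Genes outside the named set that are described from here on were picked after their values were seen.

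Of 121 tested genes in 9 lists of matrix genes, 20 rose with the score (16.5%). With slide as a block 6 of the 20 were called: Col5a1, Col6a2, Loxl1, Fbn1, Postn and Fap. These 20 were also all the genes of any of the 35 lists that rose, out of 479 list genes tested. The lists were drawn up with earlier results of these data known. The remaining 39 of the 59 were in no list (0.322% of 12121 such genes). Among them were Smoc2, a calcium-binding matrix protein (slope 0.68 ± 0.08 SE, limma adjusted p = 0.0017), and Cd248, a surface protein of stromal cells and pericytes (slope 0.48 ± 0.06, limma adjusted p = 0.0027).

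Fibrillar collagens beyond the score had 4 genes tested. Col5a1 and Col5a3, another type V chain, rose with the score, with slopes of 0.65 ± 0.07 and 0.56 ± 0.09 (limma adjusted p = 0.0017 and 0.0073). Col5a3 lay at 0.22 to 2.59 in the rich and -2.03 to 0.07 in the poor carcinomas and did not overlap. Col2a1 and Col11a2, chains of cartilage collagens, had log2 changes of 0.74 (unadjusted limma p = 0.57) and -1.40 (unadjusted limma p = 0.064), and neither passed. Among 5 fibril-associated and beaded-filament collagens only Col6a2 rose (slope 0.62 ± 0.07, limma adjusted p = 0.0017). Col5a2, Col6a3 and Col12a1 had no tested probe.

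Of 9 tested genes that trim and cross-link collagen outside the cell, 7 had a change above 0, with a median of 0.43. Loxl1, a lysyl oxidase tied to elastic fibres, and Pcolce, an enhancer of procollagen trimming, rose with the score, and none fell. Loxl1 lay at -0.52 to 0.65 (median -0.03) in the rich and -5.50 to -1.94 (median -2.87) in the poor carcinomas, with no overlap. Its difference between the sides was 3.18 ± 0.52 and missed the threshold there (limma adjusted p = 0.071). Pcolce lay at 2.47 to 5.10 (median 3.99) against 0.24 to 3.13 (median 2.14), with some overlap. Bmp1, the protease that Pcolce assists, had a log2 change of 0.13 (unadjusted limma p = 0.79).

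The machinery that folds and modifies collagen inside the cell had no member past the threshold in either fit. Of 21 genes tested, 14 had a change above 0, with a median of 0.28. At an unadjusted limma p under 0.05, 3 of the 21 were higher and none lower, beside 719 higher and 451 lower of all 12600. Serpinh1, the collagen chaperone HSP47, lay at 2.79 to 4.42 (median 3.30) in the rich and 2.47 to 3.63 (median 3.29) in the poor carcinomas. Its log2 change was 0.28 ± 0.27 (limma adjusted p = 0.80), with a 95% interval of -0.31 to 0.87. The medians of the sides were nearly equal. General chaperones of the endoplasmic reticulum had a median change of 0.10 over 18 genes, and none passed.

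Elastic fibres are built of elastin on a scaffold of fibrillin microfibrils. Of 15 such genes 13 had a change above 0, the median was 1.23, and 5 rose with the score. Fbn1, which codes for fibrillin 1, lay at -1.51 to -0.68 (median -1.24) in the rich and -6.47 to -2.67 (median -2.95) in the poor carcinomas. The change was 2.38 ± 0.56 between the sides (limma adjusted p = 0.19) and the slope 0.62 ± 0.12 (limma adjusted p = 0.034). The sides did not overlap, and the lowest value, that of carcinoma 13, was not well above background. Without carcinoma 13 the change was 1.80 and passed the threshold (limma adjusted p = 0.036). Mfap5, Mfap4 and Mfap2, proteins that bind microfibrils, and Eln, elastin itself, were the other 4 that rose, with slopes of 1.08 (Mfap5), 0.63 (Mfap4), 0.62 (Mfap2) and 0.86 (Eln). Mfap2 was well above background on 3 of the 6 poor arrays, so its slope rests partly on dim values.

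Matricellular and adhesive glycoproteins sit in the matrix and bind cells and fibres. Of 19 tested, 18 had a change above 0, the median was 1.24, and 6 rose with the score. Postn, which codes for periostin, lay at 0.85 to 2.82 (median 1.48) in the rich and -3.13 to 1.15 (median -1.45) in the poor carcinomas. The change was 2.76 ± 0.60 (limma adjusted p = 0.17) and the slope 0.80 ± 0.08 (limma adjusted p = 0.0017). The sides overlapped through carcinoma 11 alone, whose 1.15 lay above the 2 lowest rich values. Sparc, which binds collagen and calcium, lay at 5.24 to 6.46 (median 6.09) against 4.08 to 5.38 (median 4.62), a change of 1.27 ± 0.25 (limma adjusted p = 0.14) and a slope of 0.33 ± 0.05 (limma adjusted p = 0.011). The others that rose were Cthrc1, Thbs2, Srpx2 and Ccn4. Fn1, fibronectin, lay at 1.65 to 3.65 (median 2.57) against -1.85 to 2.38 (median 0.80), with overlap. Its change of 2.11 ± 0.74 did not pass in either fit (limma adjusted p = 0.43 between the sides).

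Tnn, which codes for tenascin-N, ran from -5.16 to -0.16 in the rich and from -8.63 to -2.38 in the poor carcinomas. Its probe was well above background on all 6 rich arrays but on 1 of the 6 poor ones, so it entered the test through the rich side and the size of its change is uncertain. It passed the threshold in neither fit (limma adjusted p = 0.20 between the sides).

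Small leucine-rich proteoglycans coat collagen fibrils. Of 10 proteoglycan genes 7 had a change above 0, with a median of 0.24, and Lum alone rose with the score. Lum, lumican, lay at -1.91 to -0.94 (median -1.37) in the rich and -7.41 to -3.23 (median -4.10) in the poor carcinomas. The change was 3.31 ± 0.62 (limma adjusted p = 0.12) and the slope 0.89 ± 0.11 (limma adjusted p = 0.0024). The sides were apart, with the median carcinoma between them at -2.39. Dcn, decorin, lay at 2.07 to 3.70 (median 2.72) against -6.36 to 2.31 (median 1.21), a change of 3.01 ± 1.19 that did not pass (limma adjusted p = 0.48). The lowest value, in carcinoma 4, was not well above background, and without that carcinoma the change was 1.78 (limma adjusted p = 0.37). Fmod and Omd, relatives of these, had changes of -0.80 and -0.72 that did not pass.

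Enzymes that cut matrix, and their inhibitors, had 26 genes tested, a median change of 0.35, and 3 that rose with the score: Mmp2, Mmp23 and Fap. Mmp2, gelatinase A, lay at 3.17 to 4.58 (median 3.60) in the rich and 0.86 to 2.87 (median 2.38) in the poor carcinomas without overlap. Its change was 1.57 ± 0.35 (limma adjusted p = 0.18) and its slope 0.45 ± 0.07 (limma adjusted p = 0.011). Timp1, an inhibitor of such enzymes, had a change of 0.82 ± 0.59 (limma adjusted p = 0.68) with wide overlap (1.37 to 4.06 against -0.77 to 2.68). The collagenase Mmp13 and the stromelysin Mmp3 had changes of 0.12 and 0.03. Basement membrane genes, which form sheets rather than fibres, had a median of 0.08 over 12 genes, and none rose.

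**Figure D3:**
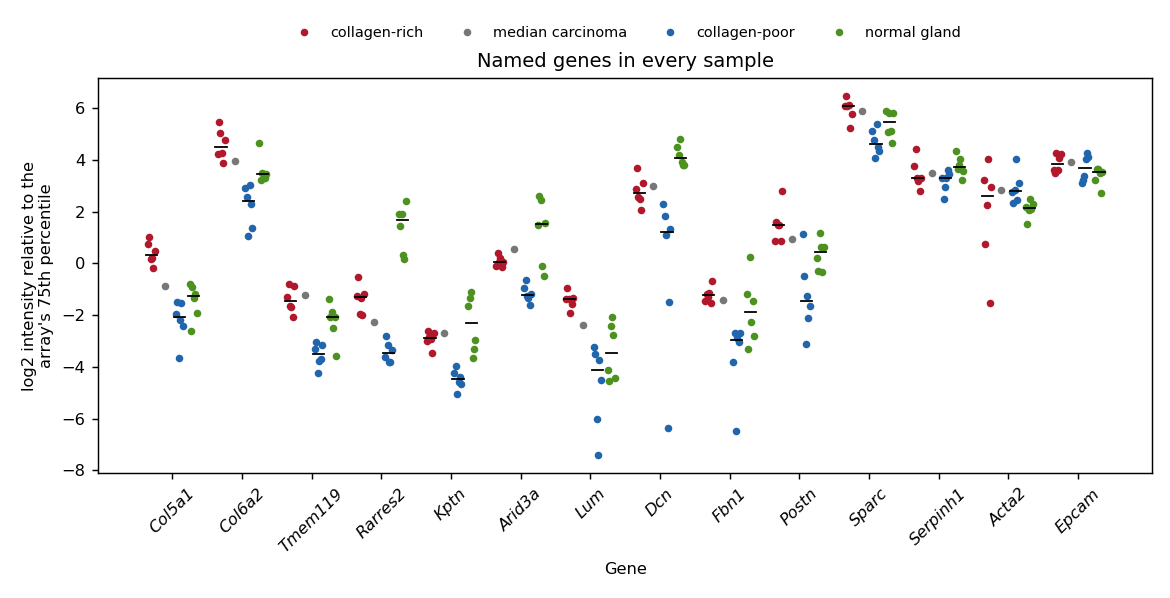
Log2 intensity relative to the array's 75th percentile (vertical axis) of 14 named genes in the 6 collagen-rich carcinomas, the median carcinoma, the 6 collagen-poor carcinomas and the 6 normal glands. Each point is a sample and each bar a group median. Red and blue points do not overlap for Col5a1, Col6a2, Tmem119, Rarres2, Kptn, Arid3a, Lum and Fbn1, and they overlap for the other 6 genes.

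Genes that mark fibroblasts had a median change of 0.74 over 15 genes, 12 of them above 0, and 1 rose with the score. This was Fap, a surface protease of activated fibroblasts, which also belongs to the list of matrix enzymes. It lay at -3.30 to -2.11 (median -2.85) in the rich and -5.30 to -3.28 (median -4.55) in the poor carcinomas (slope 0.45 ± 0.06, limma adjusted p = 0.0024). Pdgfra, a growth factor receptor of fibroblasts, lay at -1.60 to 0.22 (median -0.48) against -4.34 to -0.47 (median -2.19), a change of 1.78 ± 0.61 (limma adjusted p = 0.43). Cxcl12, a fibroblast chemokine, had a change of -1.32 (unadjusted limma p = 0.014), which did not pass.

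Pdgfrb, the receptor of pericytes and some fibroblasts, lay at -0.63 to 0.65 (median 0.19) in the rich and -1.82 to -0.59 (median -1.55) in the poor carcinomas. The change was 1.48 ± 0.27 and missed the threshold (limma adjusted p = 0.11), with the sides overlapping only between -0.63 and -0.59. Of 9 pericyte genes 8 had a change above 0, with a median of 0.89 and none past the threshold. Without adjustment, 6 of the 9 were higher and none lower at p under 0.05 in limma, beside 719 higher and 451 lower of all 12600. By the same measure 7 of the 15 fibroblast genes were higher and 1 lower. Of 13 contractile genes none was higher and 2 were lower, and of 26 luminal genes none was higher and 3 were lower. Pericyte list scores, the mean of a list's genes centred on the carcinoma means, were 0.04 to 0.94 in the rich and -0.89 to 0.55 in the poor carcinomas.

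Of 13 genes for contractile proteins of smooth muscle, myoepithelium and myofibroblasts 1 had a change above 0, the median was -0.63, and none passed. The median was above 0 within slide 3 (0.07) and within scan day 1 (0.15). Acta2, alpha smooth muscle actin, lay at -1.55 to 4.04 (median 2.61) in the rich and 2.32 to 4.01 (median 2.79) in the poor carcinomas, a change of -0.97 ± 0.77 (limma adjusted p = 0.72). The low end of the rich side was carcinoma 7 with -1.55 and carcinoma 2 with 0.77. Without carcinoma 7 the change of Acta2 was -0.27 and the median of the list -0.18. The Acta2 value of collagen-poor carcinoma 4, at 4.01, was nearly that of collagen-rich carcinoma 5, at 4.04.

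Transcription factors of epithelial-mesenchymal transition, which fibroblasts also express, had changes above 0 in 8 of 8 genes, with a median of 0.71 and none past the threshold. The largest were Snai1 at 1.73 (unadjusted limma p = 0.0050) and Twist2 at 1.53 (unadjusted limma p = 0.0038), and Twist1 had 0.22.

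No epithelial gene passed the threshold. Epcam, an adhesion protein of epithelium, lay at 3.49 to 4.27 (median 3.84) in the rich and 3.10 to 4.26 (median 3.70) in the poor carcinomas, a change of 0.20 ± 0.24 (limma adjusted p = 0.84) with a 95% interval of -0.33 to 0.73. Cdh1, E-cadherin, lay at 3.01 to 3.77 (median 3.51) against 3.16 to 4.25 (median 4.06), a change of -0.54 ± 0.21 (limma adjusted p = 0.45). The sides of both genes overlapped. Luminal genes had a median of -0.26 over 26 genes, 7 of them above 0, and basal genes a median of -0.05 over 13. Luminal list scores were -1.10 to 0.18 in the rich and -0.19 to 0.33 in the poor carcinomas. With this score as a covariate no gene was called between the sides, while 38 genes rose with the collagen score, 37 of them among the 59.

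Milk protein and lactation genes had the lowest median of the 35 lists, -1.71 over 16 genes, of which 1 was above 0. None passed, and none reached an unadjusted p of 0.05 over the 12 carcinomas. Without carcinoma 7 the median was -2.64 and 6 of the 16 were lower at an unadjusted p under 0.05, again with none past the threshold. Of all 12600 genes 576 were lower at that p without carcinoma 7. Their list score ran from -6.08 to 3.88 among rich carcinomas and from -1.40 to 2.67 among poor ones, so the rich side alone spanned the whole poor range. Within slide 2, where carcinoma 7 is the rich sample, the median was 3.15. Oestrogen-responsive genes had a median of -0.56 over 13 genes, with 4 above 0 and none past the threshold.

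**Figure D4:**
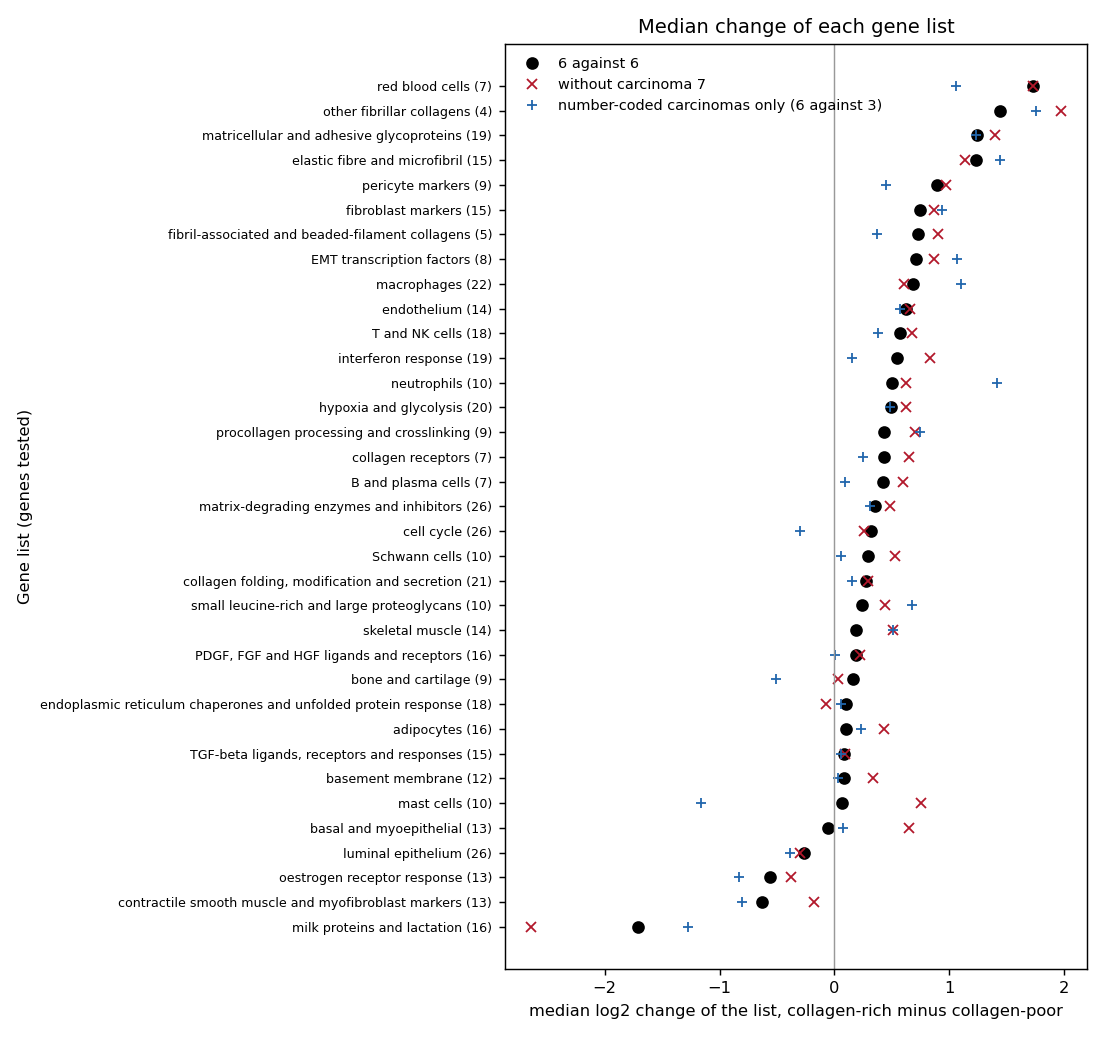
Median log2 change (horizontal axis, collagen-rich minus collagen-poor) of each of the 35 gene lists, with the number of genes tested in brackets, for 6 against 6 carcinomas, without carcinoma 7, and for the number-coded carcinomas. Elastic fibre and matricellular genes have medians of 1.14 to 1.44 in these 3 settings, and the medians of contractile and milk protein genes stay below 0.

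Among lists of immune and endothelial cells no gene passed the threshold in either fit, and the part of these cells in the results was not tested. Macrophage genes had 20 of 22 changes above 0, with a median of 0.69 and list scores of -0.55 to 1.17 against -1.28 to 1.06. Csf1r, the growth factor receptor of macrophages, lay at -1.93 to -0.61 (median -1.82) in the rich and -3.85 to -2.36 (median -2.56) in the poor carcinomas without overlap, a change of 1.31 ± 0.34 (limma adjusted p = 0.26). Endothelial genes had 13 of 14 changes above 0 and a median of 0.62, with scores of -0.05 to 0.65 against -0.71 to 0.04. Higher at an unadjusted limma p under 0.05 were 7 of the 22 macrophage and 7 of the 14 endothelial genes, and none was lower. Of all 12600 genes 719 were higher and 451 lower. With slide as a block 7 of the 22 macrophage genes but only 1 of the 14 endothelial genes were higher, and none was lower. Over all genes that block gave 972 higher and 447 lower. Pecam1, an adhesion protein of endothelium, had a change of 0.12 ± 0.31 (limma adjusted p = 0.94), with overlap (-0.07 to 0.81 against -0.94 to 1.06).

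Red blood cell genes, globins and partners, had the highest median of any list, 1.73, with 7 of 7 changes above 0. Their list scores were -0.52 to 1.90 in the rich and -2.48 to 0.62 in the poor carcinomas. Of these 7 genes 6 were higher and none lower at an unadjusted p under 0.05, beside 719 higher and 451 lower of all 12600. None rose with the score at the threshold, and globin genes share near-identical sequence, so their probes may not count apart. Red cells carry no collagen message, and how blood content bears on the comparison was not tested. T and NK cell genes had a median of 0.57 over 18 genes, with Cd2, a T cell adhesion receptor, at 1.75 and the granzyme Gzmb at -1.53, neither past the threshold. Skeletal muscle and neutrophil genes had medians of 0.19 and 0.50, and none passed.

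TGF-beta signalling is a known inducer of collagen genes. The 15 genes of its list had a median of 0.09, with 8 above 0 and none past the threshold. Tgfb1, a ligand, lay at -1.95 to -0.55 (median -1.21) in the rich and -3.81 to -1.18 (median -1.79) in the poor carcinomas, a change of 0.77 ± 0.42 (limma adjusted p = 0.60). The ligands Tgfb2 and Tgfb3 had changes of -0.88 and -0.81, and Inhba, a subunit of activin, had 1.89 (unadjusted limma p = 0.010). None of these 4 ligand genes passed.

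Collagen receptors had a median of 0.43 over 7 genes, with Ddr2, a receptor kinase for fibrillar collagen, at 1.39 (unadjusted limma p = 0.010) and Ddr1, its epithelial relative, at -0.38. Cell cycle genes had 23 of 26 changes above 0, but a median of 0.32 and none at an unadjusted p under 0.05. Among number-coded carcinomas that median was -0.30. Genes of hypoxia and glycolysis had a median of 0.49 over 20 genes, and interferon-response genes one of 0.55 over 19, again with none past the threshold.

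No gene was lower in collagen-rich carcinomas at the threshold. The 10 with the smallest p and a change below 0 were led by Slc30a5, a zinc transporter of the secretory pathway. It lay at -3.46 to -2.03 (median -2.65) in the rich and -1.87 to -1.17 (median -1.52) in the poor carcinomas, a change of -1.13 ± 0.25 (limma adjusted p = 0.18). Smarca5, the motor of a chromatin remodeller, lay at 0.27 to 0.76 (median 0.51) against 0.91 to 1.45 (median 1.13), a change of -0.64 ± 0.16 (limma adjusted p = 0.22). Neither gene had overlapping sides.

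**Figure D5:**
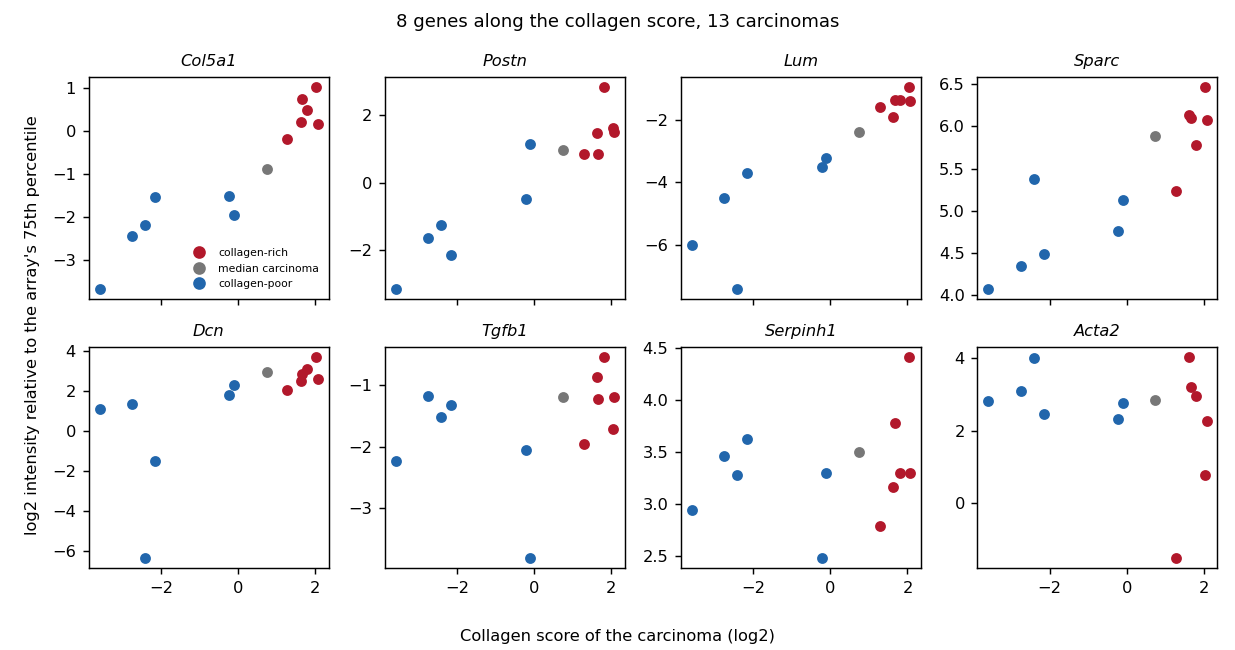
Log2 intensity relative to the array's 75th percentile (vertical axes) of 8 genes against the collagen score (horizontal axes) in the 13 carcinomas. Col5a1, Postn, Lum and Sparc rise with the score in the fit over all genes (slopes of 0.33 to 0.89), and the slopes of Dcn, Tgfb1, Serpinh1 and Acta2 did not pass.

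The collagen-poor carcinomas differed among themselves. Carcinoma 4 had the lowest Col1a1 value, 0.11, with a Col3a1 value of 3.44 that lay close to those of carcinomas 11 and 12. It also had the lowest Lum (-7.41) and Dcn (-6.36) of all carcinomas, and neither was well above background there. Its Acta2 value, 4.01, was the highest of the poor side. Carcinoma 13, with a Col1a1 value of 0.12, shared the low Lum, at -6.02, while the carcinomas other than 4 and 13 were at -4.49 or above. It had Dcn at 1.08 and the lowest Fbn1 (-6.47) and Postn (-3.13). Carcinoma 11 had Postn at 1.15 and Dcn at 2.31, inside the rich range of both genes. These are values of single tumours.

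The normal glands were not used to choose the sides. Over the 6 glands, the correlation with a collagen score centred on the gland mean could be computed for 8 of the 12 matrix genes set for it. Dcn had Pearson r = 0.87 (exact permutation p = 0.025, adjusted 0.10) and Spearman rho = 0.89 (exact permutation p = 0.033, adjusted 0.27). Fn1 had r = 0.84 (exact permutation p = 0.024, adjusted 0.10) and rho = 0.66 (exact permutation p = 0.17, adjusted 0.28). Col5a1 had r = 0.63, Fbn1 0.77, Serpinh1 0.65, Sparc 0.51, Lum 0.48 and Pdgfra -0.17, with exact permutation p-values adjusted over the 8 genes between 0.17 and 0.77. None passed after adjustment. Without the 2 glands farthest from the median score, r was 0.62 for Dcn, 0.51 for Col5a1, 0.30 for Fbn1, 0.26 for Fn1 and 0.04 for Lum, and 0.84 for Sparc and 0.97 for Serpinh1. So r fell for Dcn, Col5a1, Fbn1, Fn1 and Lum and rose for Sparc and Serpinh1, and that of Pdgfra turned from -0.17 to 0.32. With 4 glands over a narrower range r is imprecise, and whether those 2 glands carry the values was not tested.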

How the data were processed

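The collagen score, its sides and all gene lists were chosen with earlier results of these data known. Scanner files hold spot intensity that the authors' software, Agilent Feature Extraction 10.7.3.1 per the submitters' processing notes, had background-subtracted and detrended, per the file headers. A log2 table deposited by the authors differs from the values used here by an array-wise shift of 0.43 to 0.54 and served as an alternative. From the intensities, log2 values minus the array's 75th percentile were computed over 58717 spots without controls. Between 403 and 1069 uneven or outlying spots per array were treated as missing, and no spot was saturated. Probes were named through RefSeq accessions of the array annotation and a current rat gene table (18005 of 30367 probes). A probe was kept when well above background on at least 6 of the 13 carcinoma arrays, and the brightest probe stood for a gene. At 55 genes some array had no value, and the fit dropped that array there. The number of arrays limits the precision.

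Tests used limma 3.58.1 in R 4.3.3 with an intensity trend, 2-sided, with Benjamini-Hochberg adjustment and a threshold of 0.05, after a check on simulated data. Named genes were those past the threshold with sides that did not overlap (at most 10 a direction), the 2 largest past it in each list, and 23 set genes, of which 18 were tested. The normexp alternative used median spot intensity, as the scanner files used here give no mean. Alternatives are other scalings, filters, probes, blocks, covariates, groupings and single carcinomas left out.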

Additional observations from a re-analysis of the deposited data

Results flagged for a closer look

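Among 128 sets of 6 values, those of named genes, score genes, list scores and array measures on each side, 7 had a single carcinoma far from the other 5 (a gap to the nearest value that is most of the range). Chance flags about 1 in 20 sets, so 7 of 128 is near that share. Of the spots of collagen-rich carcinoma 7, 62.3% were well above background, against 79.2% or more on the other arrays of that side. Collagen-poor carcinoma 13 had Fbn1 at -6.47, with the next at -3.81, and a neutrophil score of 3.03, with the next at -0.27. Cdh1 was 3.16 in collagen-poor carcinoma 11, below 3.94 in the nearest. Csf1r was -0.61 in collagen-rich carcinoma 8, above -1.55 in the nearest. Collagen-poor carcinoma 4 had a contractile score of 1.31, above 0.34, and collagen-poor carcinoma 12 a skeletal muscle score of 2.70, above -0.27.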

How the results depend on the processing

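Between the sides, 6 genes were higher and none lower. The higher count was 3 after quantile normalization, in the authors' deposited table and with no filter on dim probes, and 2 with the mean of a gene's probes. It was 0 with slide or code series as a block, 0 with the luminal score as a covariate, and 18 among number-coded carcinomas. Slide 2 and scan day 2 hold the same carcinomas, 1 rich and 3 poor, so they are 1 setting and no count is given for them. Chosen after seeing the data, the higher count was 0 within slide 3, while within scan day 1 848 genes were higher and 337 lower. There the poor carcinomas are the letter-coded ones and the cause was not tested. With scan day as a block 1 gene was lower. Leaving out 1 carcinoma gave 0 to 15 higher (15 without carcinoma 7) and 0 to 1 lower. The remaining settings gave 6 to 9 higher, apart from the continuous score with 59 and no intensity trend with 4. These were not always the same genes. Of 9 genes called with the 4 highest against the 4 lowest carcinomas, 1 was among the 6. Of 6 called with scan day as a block, 3 were. Groups from pairs of the score genes or from quantile-normalized collagen values repeated the main fit.

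Along the score 59 genes rose and none fell. All alternatives to this fit were chosen after seeing the data. The rising count was 14 with slide as a block, 128 with scan day as a block, 38 with the luminal score and 0 among the 9 carcinomas above the widest gap, where fewer carcinomas over a shorter range were fitted. The falling count was 1 with quantile normalization, slide as a block or no intensity trend, 2 without a filter, 3 with number-coded carcinomas or array brightness, 9 with code series and 19 with scan day as a block. Leaving out 1 carcinoma gave 41 to 79 rising and 0 to 3 falling genes. There were 43 rising genes with normexp and 64 in the authors' values.

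Over the settings, the named genes gave 779 values: 634 on the same side of the threshold, 115 no longer past it, 13 newly past it, and 17 with another sign and no call. The median of all genes moved to 0.19 within slide 3 and to 0.15 within scan day 1. The correlation of Pdgfra in normal glands turned to 0.32 without the 2 farthest glands. Dim signal limits Lum, Dcn, Fbn1 and Tnn in poor carcinomas, and 16 of the 59 rising genes, among them Mfap2, Cthrc1 and Srpx2, were not well above background on all 6 poor arrays. No paired analysis was possible because both sides hold carcinomas, whose replicate numbers pair none of them.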
